A study of Sus scrofa with 12 samples.

Results

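Among 12 pig ovary samples, 4 held abundant albumin mRNA and 8 held almost none, and the account below compares these 2 sets over the whole array. Both sets were chosen by the measured ALB value: a sow was counted as albumin-positive when its probe set for ALB read above 6 on the log2 scale, and as albumin-negative at 6 or less. The 4 positive sows were high 5, low 1, low 3 and low 4, and the 8 negative sows were high 1, 2, 3, 4 and 6 and low 2, 5 and 6. High and low are the labels' prolificacy groups, 6 sows each, set by estimated breeding value, and the number is that of the animal. All 12 sows came from an F2 cross of the Iberian and Meishan breeds and were killed on day 30 of pregnancy. Each sow gave 1 sample, described as the average of its right and left ovary, which was read on an Affymetrix porcine GeneChip. No group was treated, and the labels name no batch. The array carries 24123 probe sets, of which 23998 were compared after the 124 array controls and ALB itself were left out. Values are log2 expression after GCRMA, a background correction and normalization. The scale has a floor near 2, and here a probe set at or under 4 is called off and one above 4 is called on. These samples are pieces of whole tissue, so fewer cells of a type and less RNA per cell cannot be told apart.

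Albumin is the main protein of blood plasma, and hepatocytes, the parenchymal cells of the liver, make nearly all of it. The same cells secrete fibrinogen, transferrin, apolipoproteins, protease inhibitors and most complement proteins, and carry the enzymes of drug, bile acid and urea metabolism. In early pregnancy the ovary of the sow is dominated by corpora lutea, which secrete progesterone and relaxin. Some plasma proteins, among them apolipoproteins, complement proteins and protease inhibitors, are also made outside the liver, so hepatocyte transcripts were described apart from those that the albumin-negative ovaries carried too.

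The labelled tissue was borne out by its own markers in both sets. RLN2, which encodes relaxin, lay between 14.92 and 15.21 in the 12 sows, and STAR, which brings cholesterol into mitochondria for steroid synthesis, between 14.04 and 14.80. CYP11A1, which begins steroid synthesis from cholesterol, lay between 12.71 and 13.89. Array medians ran from 4.81 to 4.93 in positive and from 4.84 to 4.97 in negative sows. The values had been normalized, which brings arrays to a like level, so like medians cannot show that no array was odd. The mean rank correlation between arrays was 0.989 within the positive set, 0.986 within the negative set and 0.986 between them. Single pairs of arrays ranged from 0.974 to 0.993.

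ALB read 12.61 in low 1, 12.40 in low 4, 8.80 in low 3 and 8.67 in high 5. Its lowest, median and highest values in the negative sows were 2.04, 2.44 and 3.33, the last in high 2. The sows therefore split at a wide gap between 3.33 and 8.67, and the positive sows themselves formed 2 levels. Since ALB chose the sets, these values only describe them, and so do the values of the other hepatocyte transcripts measured on the same arrays, whose differences between the sets are given below as values. Where the negative sows are off, a difference is against the floor of the scale and is a lower bound.

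The hepatocyte markers FGB, APOC3, FGG and TF split the sows at the same place. FGB, the beta chain of fibrinogen, read 12.87 in low 4, 11.52 in low 1, 8.49 in low 3 and 6.63 in high 5, and had a lowest, median and highest value of 2.64, 2.85 and 3.81 in the negative sows. Its means differed by 6.93 on the log2 scale. Its highest negative value was again in high 2. FGG, the fibrinogen gamma chain, read 11.65, 9.69, 5.61 and 4.46 in low 4, low 1, low 3 and high 5 against 2.21 to 2.29 in the negative sows, a difference of 5.61. APOC3, an apolipoprotein that slows the clearance of triglycerides, read 11.42, 10.89, 7.65 and 6.49 in the same order against 2.74 to 2.82, a difference of 6.34. TF, the iron carrier transferrin, read 9.96, 11.05, 7.30 and 5.50 against 2.20 to 2.25, a difference of 6.23. For each of these probe sets the lowest positive sow lay above the highest negative sow. A second FGG probe set did the same with a smaller difference of 2.60. A second TF probe set did not: it differed by -0.66, with the positive sows between 3.40 and 5.54 inside the negative range of 3.37 to 6.81.

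**Figure D1:**
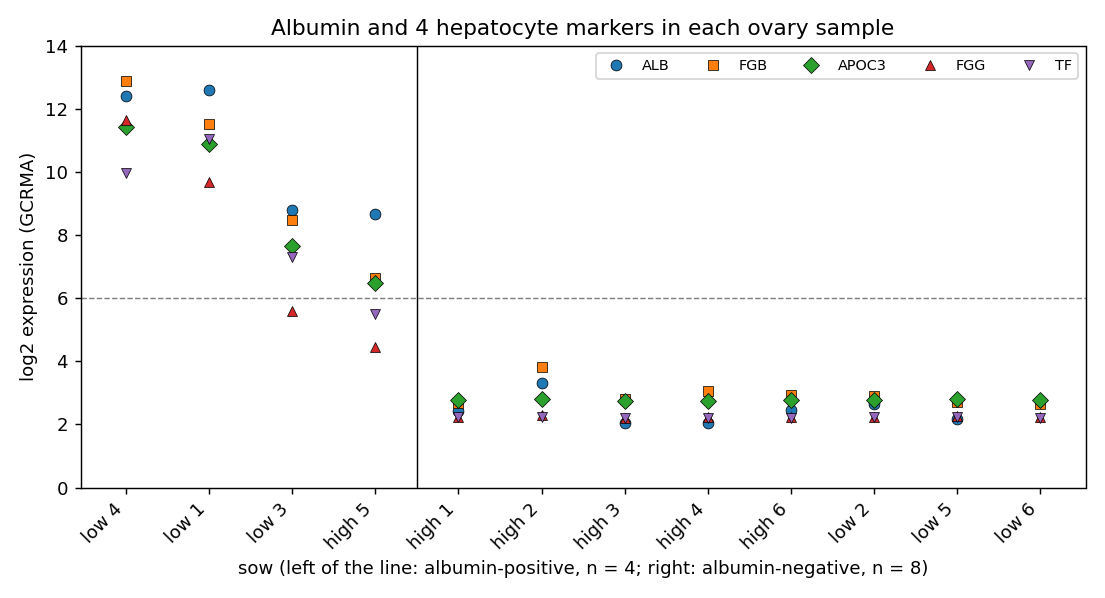
Log2 expression (y axis) of ALB, FGB, APOC3, FGG and TF in each of the 12 sows (x axis), with 1 point per gene and sow and the albumin threshold of 6 as a dashed line. All 5 genes are higher in low 4, low 1, low 3 and high 5, left of the vertical line, than in any negative sow, and ALB in high 5 and low 3 stands at 8.67 and 8.80 while the other genes are lower in high 5 than in low 3.

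FGB, APOC3, FGG and TF were, with 1 probe set of no gene name, the only probe sets of 23998 that were on in all 4 positive sows and off in all 8 negative sows. The unnamed one read 12.27, 10.54, 7.88 and 4.30 in low 4, low 1, low 3 and high 5. In the opposite direction 1 probe set was off in every positive and on in every negative sow.

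Over the whole array 41 probe sets had means 4-fold or more higher in the positive set (0.171% of 23998) and 3 had means 4-fold or more lower (0.0125%). Of the 41, 37 were off in all 8 negative sows, although off probe sets made up only 9529 of the 23998. The 37 included 23 probe sets of 21 genes on the lists of hepatocyte transcripts. Another 6 had 1 gene name and were on no such list, and they were VTN, SULT2A1, SPP2, SERPINA3-2, LOC396684 and LOC396685. VTN encodes vitronectin, an adhesive plasma protein, and read 8.19, 9.05, 5.24 and 3.35 in low 4, low 1, low 3 and high 5 against 3.13 to 3.38 in the negative sows. SULT2A1, a sulfotransferase of steroids and bile acids, read 7.20, 5.35, 3.23 and 2.10 against 2.08 to 2.17. Both are known as liver transcripts, as is SPP2, a secreted phosphoprotein that read 6.52 and 6.08 in low 4 and low 1 and 2.03 to 2.04 in low 3 and high 5. Of the 41 probe sets, 16 did not overlap between the sets, and over the array 25 were higher without overlap (0.104%) and 18 lower (0.075%). The count of 41 rests on low 1 and low 4: it was 26 without low 1, 21 without low 4 and 66 with these 2 alone as the positive set.

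The lists held 163 hepatocyte transcripts, of which 100 besides ALB had a probe set with their name and 62 had none. Among these 100, each read by its brightest probe set, 19 were 4-fold or more higher, 32 were 2-fold or more higher (0.4% of all probe sets) and 10 were higher without overlap. The median difference was 0.25, against -0.0079 over all probe sets. Of the 10, only FGB, APOC3 and FGG were on in all positive sows. For the others the lowest positive sow was off, at a level where order carries little weight. Some of these still stood clear of the negative sows, as CYP2C33 at 2.81 against at most 1.93. Others barely did, as HPX at 1.91 against at most 1.90. Without high 5 the count of 10 was 19, and with low 1 and low 4 alone as the positive set it was 46. The 100 divided by what the negative ovaries carried. For 71 transcripts that were off in all 8 negative sows, 30 were 2-fold or more higher and 31 were on in at least 1 positive sow. For 20 that were on in all 8, only ITIH4 was 2-fold or more higher. Of the 9 that were on in some negative sows, only ARG1, which ends the urea cycle, was. The 20 include CFB, whose brightest probe set lay at 4.10 to 4.15 in the negative sows, just above the level for on.

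Carrier and binding proteins of plasma held several of the transcripts furthest apart. Of 15 on the list 13 were measured, 8 were higher and 5 lower, 6 were 4-fold or more higher by the brightest probe set and 7 with TF counted by its other probe set, and the median difference was 1.79. GC, the vitamin D carrier whose gene lies near ALB, read 8.49, 8.10, 3.96 and 2.86 in low 4, low 1, low 3 and high 5 against 2.37 to 2.44 in the negative sows. HPX, which binds free haem, read 8.44, 7.77, 2.13 and 1.91 against 1.86 to 1.90. TTR, a carrier of thyroid hormone, was brightest in low 1, at 8.46, and read 6.71 in low 4, 2.50 in low 3 and 2.66 in high 5 against 2.41 to 2.48. AMBP, the precursor of a small lipocalin and a protease inhibitor, differed by 3.02, APOH, which binds phospholipid, by 2.72, and RBP4, the retinol carrier, by 2.49. For all 6 genes, by these probe sets, only low 1 and low 4 were on. A second RBP4 probe set differed by 0.73 and was on in low 4 alone, at 4.59. SERPINA6, SERPINA7 and IGFALS, carriers of cortisol, thyroid hormone and growth factors, were off in every sow.

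Coagulation and fibrinolysis proteins followed fibrinogen less evenly. Of 22, 12 were measured, 3 were 4-fold or more higher, 1 was 2-fold or more lower (0.138% of all probe sets) and the median difference was 0.64. PLG, the precursor of plasmin, read 7.24 in low 4 and 6.45 in low 1, and 1.92 to 1.93 in low 3 and high 5, inside the negative range of 1.88 to 1.95. KNG1, the precursor of bradykinin, was the exception: its brightest probe set was on in all sows, with positive values from 5.07 to 6.03 against a lowest, median and highest of 5.28, 7.35 and 7.94, a difference of -1.19. Its other probe sets differed by -1.16, -0.76 and -0.01. F12, KLKB1, SERPIND1, PROC and A1BG were off in all 12 sows, though not all were flat. PROC read 3.53 in low 1 and 3.37 in low 4 against 1.93 to 1.95 in the negative sows. SERPIND1 read 3.86 in low 1 against 2.14 to 2.20.

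Among apolipoproteins, 9 of 14 were measured and 4 were 4-fold or more higher, with a median of 0.29. After APOC3, APOB, the structural protein of low-density lipoprotein, read 8.06 and 6.92 in low 4 and low 1, APOC2, which activates lipoprotein lipase, read 7.43 and 5.43, and APOA2 of high-density lipoprotein read 6.63 and 5.40. All 3 were off in low 3 and high 5. APOA1, the main protein of high-density lipoprotein, lies next to APOC3 in the RefSeq gene order of the Sscrofa11.1 assembly but behaved otherwise. It was bright in all 12 sows, between 12.11 and 12.92, with means of 12.59 ± 0.27 (SD, n = 4) and 12.30 ± 0.17 (SD, n = 8). APOA4, the gene on the other side of APOC3 and best known from the intestine, was on in low 4 alone, at 8.09, and read 2.48 to 2.54 in the negative sows. AFP, the fetal albumin whose gene adjoins ALB, was off in every sow, between 2.11 and 2.16.

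Acute phase proteins and protease inhibitors, 15 of 20 measured, had 2 members 4-fold or more higher and a median of 0.29. SERPINA1, the main inhibitor of neutrophil elastase in plasma, read 8.39, 7.93, 2.62 and 2.44 in low 4, low 1, low 3 and high 5 against 2.35 to 2.42. ITIH2, a chain of the hyaluronan-binding inhibitors, differed by 2.06. LOC396684, LOC396685 and SERPINA3-2, serpins that lie near one another in the same gene cluster as SERPINA1, differed by 4.08, 2.70 and 2.78. A probe set assigned to 4 serpin genes of the cluster differed by 4.16. These near-identical copies can share probes, so which of them was read is uncertain. SERPINA6, in the same cluster, lay between 2.77 and 2.87 in all sows. HP, or haptoglobin, was on everywhere, with 12.96 in low 4, 11.70 in low 1, 10.11 in low 3 and 9.13 in high 5 against 9.66 to 12.26 in the negative sows.

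Complement proteins, 11 of 16 measured, had no member 4-fold or more higher by the brightest probe set and a median of 0.11. The ovaries of both sets carried several of them: C3, the central component, averaged 10.97 ± 0.43 in positive and 10.45 ± 0.31 in negative sows, and C4A 11.71 ± 0.33 and 11.60 ± 0.31. A second probe set of CFB, a component of the alternative pathway, was off in the negative sows and read 7.15 in low 4 and 6.69 in low 1. The CFB probe set with the higher mean differed by 0.15. It lay just above the level of 4 in all sows, from 4.10 to 4.15 in the negative and 4.10 to 4.75 in the positive sows. For CFB the choice of the brightest probe set therefore decides the result.

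Hepatocyte enzymes, 31 of 51 measured, had 4 members 4-fold or more higher and a median of 0.26. CYP2C33, a cytochrome P450 of drug and steroid oxidation, read 11.06, 8.71, 5.73 and 2.81 in low 4, low 1, low 3 and high 5 against 1.89 to 1.93, a difference of 5.17. CYP3A39, of another P450 family of drug oxidation, was brightest in low 1, at 9.42, and read 7.95 in low 4, 6.89 in low 3 and 2.55 in high 5 against 2.50 to 2.57. CYP2E1, which oxidises ethanol, differed by 3.60, and FABP1, the fatty acid binding protein of liver cytosol, by 2.51. CYP7A1 and CYP8B1 of bile acid synthesis and OTC of the urea cycle were among the 11 members that were off in all 12 sows. PCK1, the rate-limiting enzyme of gluconeogenesis, was on in 1 positive sow, high 5, at 7.54, and in 1 negative sow, high 2, at 6.51.

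Transcription factors and membrane transporters of the hepatocyte, 9 of 25 measured, were off in every sow, and the median difference was -0.0048. They include HNF4A, FOXA1, FOXA2 and CEBPA, which direct hepatocyte gene expression, and SLC10A1 and ABCB11, which move bile acids. In all, 40 of the 100 measured members were off in all 12 sows by their brightest probe set, and 39 by every probe set. The exception was LBP, which binds bacterial lipopolysaccharide, whose other probe set read 5.21 in low 4. Some of the 40 nevertheless rose under the level of 4 in low 1 or low 4. A1BG read 2.99 and 2.96 there against 1.91 to 1.95 in the negative sows. HNF4A read 3.89 in low 4 against 2.34 to 2.90, while of its list 2 members were higher and 7 lower. Others of the 40 stayed flat, such as OTC, between 2.31 and 2.37 in all sows.

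**Figure D2:**
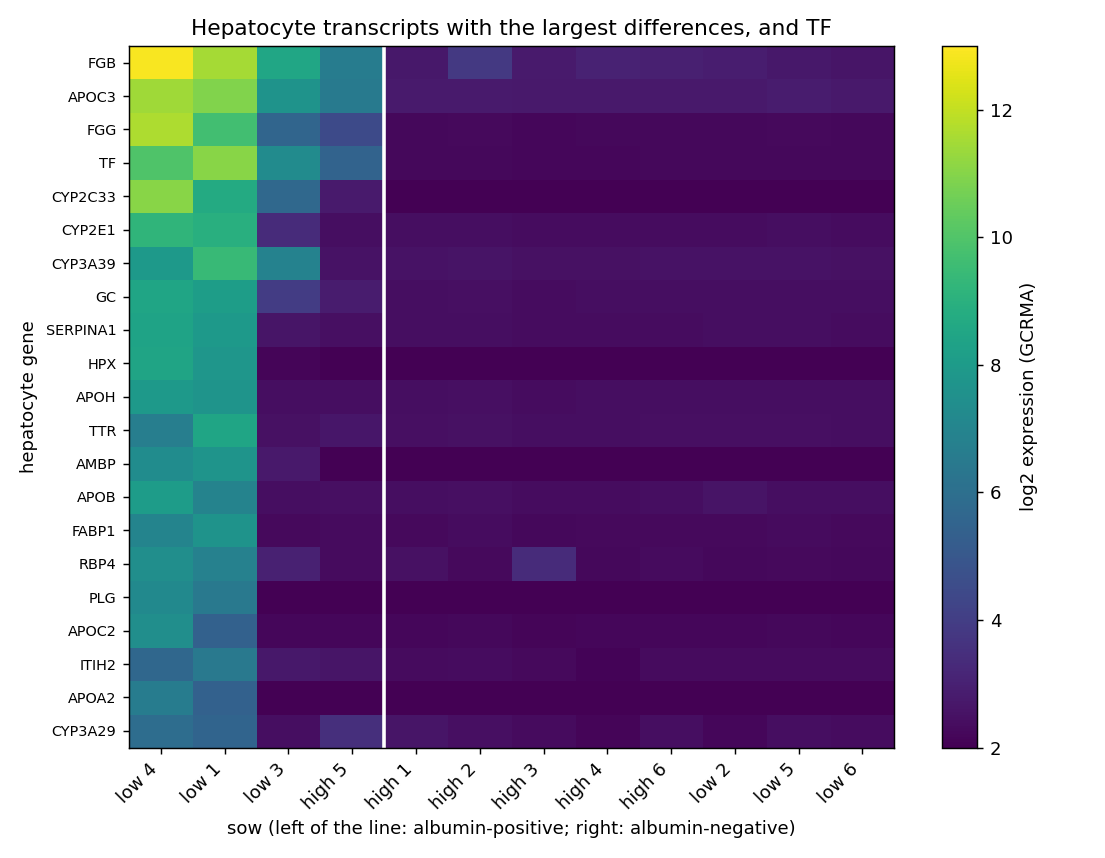
Log2 expression (colour, from 2 to 13) of the 20 hepatocyte genes with the largest differences and of the TF probe set that differed by 6.23 (rows), in the 12 sows (columns), with the positive sows left of the white line. Low 4 and low 1 are on in every row, brightest at the top and down to 5.67 for ITIH2 in low 4 and 5.40 for APOA2 in low 1. High 5 is on only for FGB, APOC3, FGG and TF, and low 3 for these and for CYP2C33 and CYP3A39. The negative sows are dark, apart from slightly raised FGB in high 2 and RBP4 in high 3.

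Within the positive set the signal was graded. All 37 probe sets that were off in the negative sows and 4-fold or more higher in the positive set were on in low 1 and in low 4, but only 11 in low 3 and 6 in high 5. The 37 were chosen by the mean of these 4 sows, which favours probe sets high in both low 1 and low 4. Their counts and medians by sow therefore partly follow from the choice. HBE1, an embryonic globin on in low 3 alone at 6.36, differed by 1.11 and was not among them. Above the higher level of 6 were 35 of the 37 in low 4, 32 in low 1, 6 in low 3 and 2 in high 5. The median of the 37 was 8.01 in low 4, 7.63 in low 1, 3.10 in low 3 and 2.43 in high 5. Those still on in the weaker sows were mainly those brightest in the stronger ones: of the 10 brightest in low 1 and low 4, 9 were on in low 3 and 5 in high 5, and of the other 27 only 2 and 1 were.

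Low 4 and low 1 differed in composition as well as in level. Low 4 was higher in 27 of the 37 and lower in 10, with differences from -2.20 to 3.38 and a median of 0.53. LOC396684 was higher in low 4, at 10.20 against 6.83, and FGG at 11.65 against 9.69. TTR, CYP3A39, TF and VTN were higher in low 1, TTR by 8.46 against 6.71. ALB itself differed little between them, 12.61 against 12.40.

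Low 3 and high 5 had nearly the same ALB, 8.80 and 8.67, yet all 11 of the 37 probe sets that were on in low 3 were lower in high 5. Choosing probe sets as on in low 3 favours low 3 in this count. Of the 6 that were on in high 5, 5 were on in low 3 too. FGB was lower in high 5 by a log2 difference of 1.87, APOC3 by 1.16, FGG by 1.14 and TF by 1.80. CYP2C33 and CYP3A39, at 5.73 and 6.89 in low 3, were off in high 5. The second FGG probe set went the other way, at 3.81 in low 3 and 4.72 in high 5. From the mean of low 1 and low 4 to low 3, ALB and FGB were both lower by 3.70, APOC3 by 3.51 and TF by 3.21. Over the 11 the median of this step was 3.53, from 1.36 for a CYP3A39 probe set to 5.06 for FGG. From the same mean to high 5 the step was 3.83 for ALB and 5.57 for FGB. With 1 array per sow, none of these differences between sows has a replicate.

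**Figure D3:**
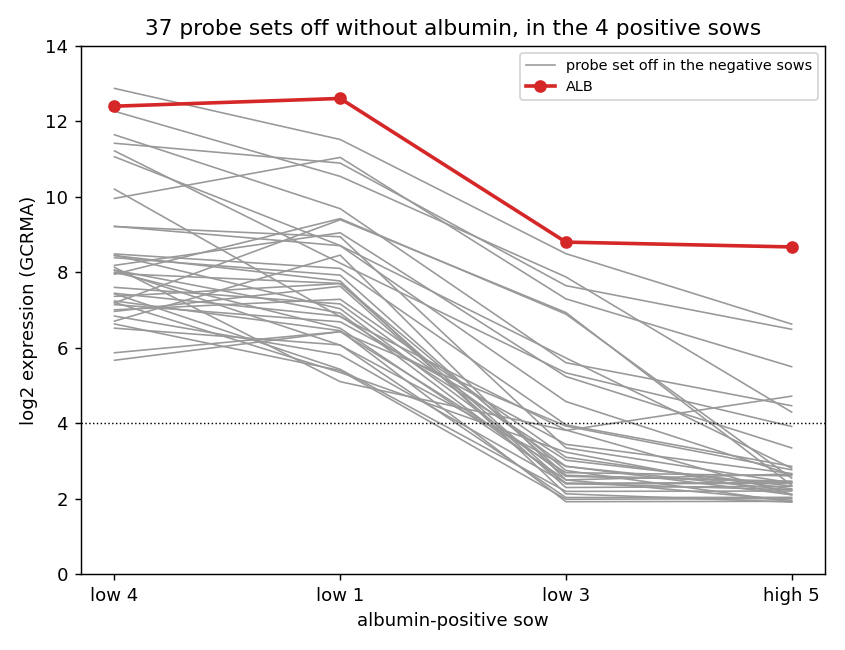
Log2 expression (y axis) in the 4 positive sows (x axis) of the 37 probe sets that were off in all negative sows and 4-fold or more higher in the positive set, 1 grey line each, with ALB in red and the level of 4 dotted. All 37 lie above 4 in low 4 and low 1, 11 in low 3 and 6 in high 5, while ALB stays level between low 3 and high 5. The 37 were chosen by the mean of these 4 sows, so their fall from left to right partly follows from the choice.

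Switched-on transcripts were also counted sow by sow without use of the positive set as a whole. Probe sets above 6 in a sow and off in all other negative sows numbered 42 in low 4, 35 in low 1, 7 in low 3 and 3 in high 5, of which 26, 22, 5 and 2 were on hepatocyte lists. Among negative sows there were 11 in high 2, 1 of them a hepatocyte transcript (PCK1), 1 in high 4 and 0 in each of the other 6. At the lower level of 4 the counts over all genes did not separate the sets, with 99, 89, 39 and 47 in low 4, low 1, low 3 and high 5 and 32 to 159 in the negative sows, the most in high 3. Those on hepatocyte lists then numbered 36, 33, 7 and 5 in the positive sows and 0 in all negative sows but high 2, with 1, and low 5, with 4. Low 5 had 4 hepatocyte list probe sets that no other negative sow had, those of ORM1 at 5.05, SDS at 4.64, C2 at 4.48 and GNMT at 4.04, and its ALB read 2.16. The brightest ORM1 probe set, however, was on in all 12 sows, between 8.35 and 9.44. SDS in low 2 and C2 in high 1 stood just under the level of 4, both at 3.94.

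Markers of other tissues were mostly off or overlapped between the sets. Of the bile duct list, 5 of 7 measured, KRT19, SOX9 and CFTR were off in all sows, and EPCAM read 3.33 ± 0.58 in positive and 3.27 ± 0.50 in negative sows. SPP1, or osteopontin, a secreted phosphoprotein of bile ducts, of uterine glands and of bone, was the only one of the 41 probe sets that was on in all negative sows. It read 12.82, 12.02, 11.25 and 8.08 in low 1, low 3, low 4 and high 5 against a lowest, median and highest of 6.13, 7.95 and 12.68 in the negative sows, so the sets overlapped. The 3 probe sets of the 41 that were on in only some negative sows were TTC38, a tetratricopeptide repeat protein, and 2 without gene names. TTC38 read 8.51, 8.39, 8.11 and 6.41 in low 4, low 3, low 1 and high 5 against a lowest, median and highest of 3.63, 5.65 and 9.61, and a pair of dim probe sets differed by -0.07 and -0.05. Of the list for pancreas, gut, kidney and lung, 8 of the 10 measured were off in all sows, and of that for placenta and uterus, 3 of 6. On the latter list SPP1 and ACP5, an acid phosphatase of osteoclasts and macrophages, were 2-fold or more higher. ACP5 averaged 6.78 ± 1.03 in positive and 5.67 ± 1.21 in negative sows, with overlap. Kupffer cells, the macrophages of the liver, and its sinusoidal endothelium were represented by 6 measured markers of 11, of which 5 were higher in the positive sows, with a median difference of 0.26. MARCO and CD5L, which Kupffer cells express, were off in all sows. Under that level CD5L read 3.29 in low 4 against 2.71 to 2.77 in the negative sows. LYVE1, of sinusoidal and lymphatic endothelium, differed by 0.68 with overlap. FCN2, a ficolin, differed by 0.52, VSIG4, a complement receptor of tissue macrophages, by 0.27 and CD163, the haemoglobin scavenger receptor, by 0.24, all with overlap. Red cell transcripts, which follow the blood left in a sample, did not separate the sets: HBB read 9.63 ± 0.17 and 9.51 ± 0.33. HBE1, an embryonic globin, read 6.36 in low 3 and 2.15 to 2.55 elsewhere. The part of blood, liver or other cells in these values was not tested.

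Transcripts of the ovary itself differed little between the sets. Of 12500 probe sets that were on in all negative sows, SPP1 alone was 4-fold or more higher, and 2 were 4-fold or more lower, AMCF-II and an unnamed one. The sets were compared with limma over all 23998 probe sets, read only for probe sets on no hepatocyte list, as an association with albumin status in these 12 sows. No probe set passed an adjusted p of 0.05, 494 had an unadjusted p under 0.05 (2.06%), and the smallest adjusted p outside the hepatocyte lists was 0.336, for a probe set with no gene name, and 0.505 among those with 1 symbol. Over all 23998 probe sets, of which 9529 were off in all negative sows, the 95% interval of a difference had a median half-width of 0.27. It is therefore no measure of the precision for ovarian transcripts. Some of these were less precise, as LHCGR of the luteal list with a standard error of 0.49. With high 5 left out, 2 probe sets on no hepatocyte list passed, ACSL6 and 1 without a name. ACSL6 in high 5 lay inside the negative range, so its result rests on leaving that sow out.

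**Figure D4:**
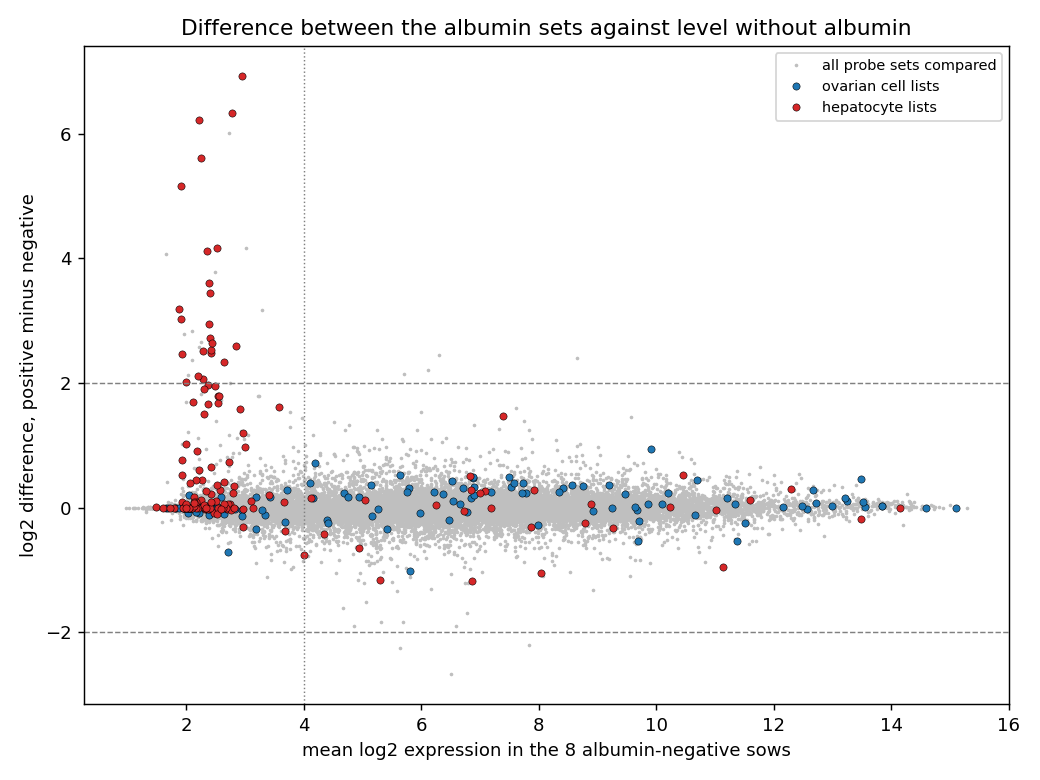
Log2 difference, positive minus negative (y axis), against the mean log2 value in the 8 negative sows (x axis) for the 23998 probe sets in grey, with ovarian cell lists in blue and hepatocyte lists in red. The vertical line marks 4 and the dashed lines mark 4-fold. The 23 hepatocyte probe sets above the upper line all lie left of 4, and no ovarian list member lies outside the dashed lines.

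Luteal transcripts, 14 of 15 measured, had a median difference of 0.017, with 8 higher and 6 lower. RLN2 averaged 15.09 ± 0.02 (SD, n = 4) in positive and 15.10 ± 0.11 (n = 8) in negative sows, and STAR 14.57 ± 0.09 and 14.59 ± 0.25, near the top of the scale where differences are compressed. LHCGR, the receptor for luteinising hormone, differed most, by -0.54 with a standard error of 0.49. Granulosa and follicle transcripts, 15 of 15, had a median of 0.052, with INHA, the inhibin alpha subunit, at 8.93 ± 1.11 and 8.56 ± 2.64. Of theca transcripts 3 of 5 were measured, and INSL3, a theca hormone, read 10.43 ± 1.22 and 10.20 ± 2.29, a difference that turned sign when high 4, low 2, low 4 or low 5 was left out. Of oocyte transcripts 7 of 13 were measured, and KIT, the receptor for stem cell factor, differed by -1.03 with a standard error of 0.53.

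Stroma and smooth muscle, endothelium and macrophage transcripts were mostly higher in the positive sows, with medians of 0.34, 0.20 and 0.24 and 11 of 12, 11 of 12 and 6 of 7 members higher, where 37.2% of all probe sets were higher. None passed the adjusted threshold. FN1, or fibronectin, which hepatocytes also make, read 10.84 ± 0.37 against 9.91 ± 0.60, a difference of 0.93 with a standard error of 0.32, and its dim other probe sets differed by -0.01, -0.01 and 0.01. ACTA2, the smooth muscle actin, read 13.95 ± 0.07 against 13.48 ± 0.50, and CLDN5 of endothelial tight junctions 7.37 ± 0.20 against 6.88 ± 0.44. Lymphocyte transcripts, 10 of 14 measured, were all off in every sow.

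Among lists for cell states, proliferation transcripts had a median of 0.40 with 9 of 10 higher, led by RRM2, a subunit of ribonucleotide reductase, at 5.89 ± 0.95 against 4.52 ± 1.28. Interferon-induced transcripts had a median of 0.26 with 9 of 12 higher, and ISG15, a ubiquitin-like protein induced by interferon, read 6.44 ± 1.84 against 5.34 ± 1.66. Immediate early and stress transcripts had a median of -0.24 with 8 of 12 lower, and those of hypoxia and glycolysis had a median of 0.038. All of these sets overlapped and 0 members passed the adjusted threshold.

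**Figure D5:**
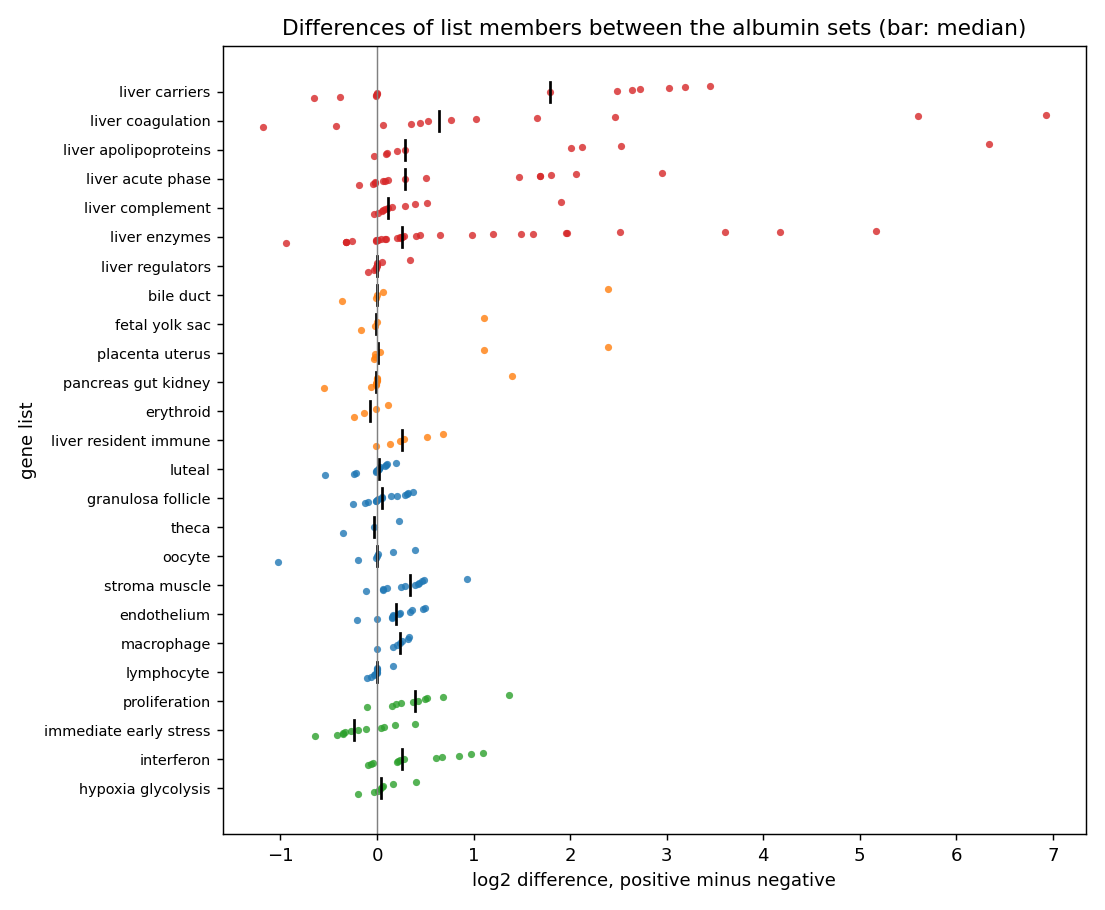
Log2 difference, positive minus negative (x axis), of each measured member of the gene lists (rows), 1 point per gene by its brightest probe set, with the median of the list as a black bar. Hepatocyte lists are red, other tissues orange, ovarian cells blue and cell states green. Points of the carrier, coagulation, apolipoprotein, acute phase and enzyme lists reach beyond 2, as does SPP1 on the bile duct and placenta lists, and the regulator list and the ovarian lists stay within about 1 of 0.

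Of the genes on no hepatocyte list, those with the smallest p in each direction follow. MARVELD1, a protein with a MARVEL membrane domain, was higher without overlap, from 6.77 to 7.13 in positive against 6.40 to 6.73 in negative sows, a difference of 0.44 with a standard error of 0.07 (limma, adjusted p = 0.505). STAT2, which carries the interferon signal to the nucleus, averaged 6.61 ± 0.19 against 6.17 ± 0.19, and HDAC1, a histone deacetylase, 8.89 ± 0.06 against 8.72 ± 0.10. GPNMB, a glycoprotein of macrophages and other cells, differed by 1.44, from 4.98 to 5.94 in positive against a median of 3.56 and a highest value of 5.63 in negative sows. The brightest GPNMB probe set differed by 1.45, from 10.58 to 11.44 against 7.73 to 11.35, and another by 1.24, and for all 3 the order of the positive sows was high 5, low 1, low 3, low 4. That order puts high 5, the weakest in hepatocyte transcripts, first. In the other direction HEPACAM2, a cell adhesion protein, was lower without overlap, from 5.55 to 5.95 against 6.09 to 6.70, a difference of -0.60 with a standard error of 0.11 (limma, adjusted p = 0.591). ACSL6, which activates fatty acids, averaged 7.45 ± 0.37 against 8.22 ± 0.21, with overlap (limma, adjusted p = 0.999). High 5 lay inside the negative range of 7.97 to 8.61, and the other positive sows lay between 7.20 and 7.32. With high 5, the sow that went against the difference, left out, ACSL6 was the 1 named ovarian gene past the threshold (limma, adjusted p = 0.039, difference -0.95). ODC1, the first enzyme of polyamine synthesis, averaged 10.99 ± 0.20 against 11.58 ± 0.30, and GCLM, a subunit of the enzyme that begins glutathione synthesis, 6.01 ± 0.67 against 7.04 ± 0.42. Among the 10 with the smallest p in the higher direction, VTN, LOC396684, SULT2A1 and the P450 CYP3A46, which read 5.59, 6.30, 4.68 and 3.73 in low 4, low 1, low 3 and high 5, were brightest in low 1 and low 4 and dimmest in high 5, as the hepatocyte transcripts were.

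The 3 probe sets that were 4-fold or more lower in the positive set were AMCF-II, a porcine neutrophil-attracting chemokine, and 2 without gene names. AMCF-II averaged 5.62 ± 0.86 against 7.84 ± 1.59, with the sets overlapping through low 2 at 4.32. A second probe set of it differed by -1.70, and the remaining one, brightest in all sows, by 0.07. The count of 3 was 1 without high 5 and 8 without low 2.

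Albumin status was set against the labels' prolificacy groups. Of the 6 high prolificacy sows 1 was positive and of the 6 low prolificacy sows 3 were (Fisher's exact test, two-sided, p = 0.545). The mean ALB level was 3.50 ± 2.58 in the high group and 6.90 ± 4.98 in the low group (SD, n = 6 each), a log2 difference of -3.40. Over the 101 hepatocyte transcripts with ALB, high and low sows differed at the adjusted threshold in 0, and 4 had an unadjusted p under 0.05 by limma, against 4.21% of all 23999 probe sets. Of the 101, 75 were lower in high prolificacy sows, where 44.8% of all probe sets were, and all 37 of the graded probe sets were lower, a direction that follows from 3 of the 4 positive sows being in the low group.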

How the data were processed

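Total RNA of 12 sow ovary samples was labelled and read on Affymetrix porcine GeneChips. The deposited values were used as log2 expression per probe set, a scale read from the values, which ran from 0.97 to 15.34. GCOS, the scanner software, and GCRMA had been applied by the authors, per the submitters' processing notes. For their versions and settings, and for what was averaged between ovaries: not given in the sources used here. GCRMA compresses differences near its floor, and the number of sows limits precision. Labels do not say whether samples were extracted separately, so p-values measure only the spread between these samples.

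By the array's annotation, 10068 of the 23998 probe sets carried 1 symbol, 198 several and 13732 none, and an Entrez update matched 9960 and changed 0. Albumin sets were cut at 6 for ALB (1 probe set). Probe sets were compared with no brightness filter in R 4.3.3 by limma 3.58.1 (lmFit, eBayes), without covariates, two-sided, at a Benjamini-Hochberg adjusted p of 0.05. Standard errors are those of limma. Genes of 2 or more probe sets were read by the brightest over the 12 sows. Disagreements are stated for hepatocyte genes that were 4-fold or more higher by 1 of their probe sets. The list members and the members of the comparison were chosen with earlier results of these data known. Genes named are the 20 hepatocyte members with the largest difference, the 10 with the smallest p in each direction on no hepatocyte list, up to 3 with the smallest p of each other list, and defining markers whatever their value. Further members, gene neighbours and single-sow exceptions were named after seeing their values. The fit was also run on simulated data, with shifts added only to probe sets with a mean above 4. It therefore says nothing about transcripts that are off in the negative sows. Alternatives were a filter, other scalings, array weights, moderation with trend, a replicate block, prolificacy or ALB as covariate, other ALB and fold thresholds and leaving out each sow.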

Additional observations from a re-analysis of the deposited data

Results flagged for a closer look

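In 143 comparisons of 1 sow with the other 5 of its prolificacy group, 14 values lay far from the rest by Dixon's ratio (critical value 0.625). The genes compared include ones chosen by their values in these same data, so no chance rate can be set against this count. High 5, the only albumin-positive sow of its group, gave 7 of them: ALB at 8.67, FGB at 6.63, APOC3 at 6.49, FGG at 4.46, TF at 5.50, which restate how the sets were chosen, and GPNMB at 5.94 and the endothelial cadherin CDH5 at 9.82. GPNMB and CDH5 were chosen by their p between the same sets, so they are not independent of them. In low 4 APOA4 stood at 8.09 and in low 3 the embryonic globin HBE1 at 6.36. Among negative sows, ACSL6 stood at 8.61 and the nuclear receptor NR4A2 at 7.99 in high 2, CYP3A46 at 4.63 in high 1, the globin HBM at 6.21 in high 4 and the early response gene IER2 at 9.95 in high 3.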

How the results depend on the processing

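Precision was limited by 4 sows against 8 and by the compressed low end of the scale, and 1 array per sow leaves differences between single sows with no replicate. By limma 0 probe sets passed between the albumin sets. This count was 3 with only probe sets above 4 in at least 4 sows, 4 with array weights, 6 with ALB as a continuous covariate, and 0 to 8 when each sow was left out, the 8 without high 5. Hepatocyte probe sets, which follow the ALB value that chose the sets, made up 3 of the 3 (on only in the positive sows), 3 of the 4, 5 of the 6 and 6 of the 8, so these counts support nothing about them. The count was 0 with quantile normalization, median centring, trend and robust moderation, and prolificacy as a covariate. As first run, the smallest limma adjusted p on no hepatocyte list was 0.336. Thresholds of 5 and 8 for ALB gave the same sets, so they test nothing. Probe sets 4-fold higher numbered 41, and 96 at 2-fold, 66 with low 1 and low 4 alone (chosen after seeing the data) and 21 to 55 with each sow left out. Those lower numbered 3, and 33, 1 and 1 to 8 in the same order. Hepatocyte members above the negative set numbered 10, and 46 with low 1 and low 4 alone and 10 to 19 with each sow left out. Between high and low prolificacy 0 passed under every alternative run. Of 94 single probe sets followed, 6 turned sign: AHSP (0.26 with array weights, -0.43 to 0.16 with each sow left out), INSL3 (-0.14 with array weights, -0.057 with the block, -0.26 to 0.80), GLI1 (0.083 with prolificacy as a covariate, -0.21 to 0.18), APOA4 (-0.0021 to 1.87), CPA1 (0.00093 with the block) and CD79B (0.0062 with the block). The cause was not tested. With the animal number as a replicate block 0 probe sets passed in either comparison. Same-numbered sows had correlations from -0.43 to 0.14, and the own number was the best match for 1 of 6, so the numbers do not pair the sows.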
